A study of Homo sapiens with 24 samples.

Results

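Collagen chain genes encode the alpha chains that wind together into collagen, the main structural protein of the extracellular matrix. They were taken here as the protein-coding genes of the deposited table whose symbol reads COL, a type number, A and a chain number, which gave 44 of 62757 genes. Of these, 42 had enough counts to be among the 17724 genes tested, and COL10A1 and COL6A5 did not. Bulk RNA was counted in 24 libraries of cardiac cells derived from the human embryonic stem cell line HES3, which in every group carried a GFP reporter at NKX2-5 and an mCherry reporter at NR2F2. The cells had been edited with CRISPR-Cas9 against LHX2, ZNF503 or ZNF711, or against TRAC, a T cell receptor gene that served as the control target. Each of the 4 targets was differentiated as embryoid bodies with a Wnt-modulating protocol for up to 14 days, labelled AM or VM. The labels do not spell these out, and AM is read here as the atrial protocol, which received retinoic acid on day 4, and VM as the ventricular protocol, which did not. This gave 8 groups, each with replicates 1, 2 and 3. Whether an edited line was a single clone, and whether replicates were separate differentiations, is not given in the sources used here, so p-values measure the spread between these libraries, which may be technical.

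Collagens are sorted by the assemblies they form. Fibrillar collagens such as I and III bear tensile load, and in the heart they are made mostly by fibroblasts of the interstitium. Collagen IV chains form the sheet-like network of basement membranes, which surround cardiomyocytes and line vessels. Collagen VI forms beaded filaments between cells and fibrils, fibril-associated collagens coat fibrils, and the remaining classes include transmembrane chains and multiplexins, basement membrane collagens that carry heparan sulfate or chondroitin sulfate chains.

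The collagen IV genes lie in head-to-head pairs, in which 2 chains are read in opposite directions from a shared region, and these regions are shown because COL4A1 and COL4A2 were called lower and COL4A5 higher in AM in each target. Both sequences are from RefSeq (GRCh38.p14), plus strand, starting at the annotated start of the chain read from the minus strand. Capitals mark matches to CCAAT or GGGCGG on either strand.
COL4A1/COL4A2, chr13:110307157-110307284: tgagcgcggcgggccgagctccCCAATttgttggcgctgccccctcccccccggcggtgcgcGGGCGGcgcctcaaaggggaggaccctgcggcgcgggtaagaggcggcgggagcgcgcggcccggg
COL4A6/COL4A5, chrX:108439458-108439757: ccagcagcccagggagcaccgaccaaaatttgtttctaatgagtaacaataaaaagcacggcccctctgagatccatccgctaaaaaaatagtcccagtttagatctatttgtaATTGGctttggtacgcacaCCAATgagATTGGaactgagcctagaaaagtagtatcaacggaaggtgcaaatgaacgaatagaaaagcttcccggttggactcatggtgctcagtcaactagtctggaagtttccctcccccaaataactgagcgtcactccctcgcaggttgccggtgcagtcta
The COL4A1/COL4A2 region is shown whole, spans 128 bases and is 79.7% G or C, with 1 match to CCAAT and 1 to GGGCGG. The first 300 bases of the COL4A6/COL4A5 region are shown. That region spans 381 bases to the annotated start of COL4A5, is 48.6% G or C, and holds 3 matches to CCAAT and 0 to GGGCGG. Among 35116 RefSeq promoters of 300 bases, 34.6% held CCAAT and 45.0% held GGGCGG on either strand. Neither region held TATAAA (11.5% of promoters) or AGGTCA, the half-site bound by retinoic acid and other nuclear receptors (13.8%). These shares are for windows of 300 bases, so they are not matched to regions of 128 and 381 bases. Promoter entries were found for 32 of the 44 genes.

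Libraries held 2899786 to 7438010 counts, and 3 counts, taken as the detection floor, equalled 0.447 to 0.963 CPM, counts per 1000000 with libraries scaled by the trimmed mean of M values. Collagen chains took 1.21 to 1.79% of counts in AM libraries and 1.07 to 1.4% in VM libraries. Replicate 3 of VM TRAC, VM LHX2 and VM ZNF503 stood apart from replicates 1 and 2. Its summed hepatic and visceral endoderm markers were 25614, 9245 and 17108 CPM, against 1427 to 3279.9 CPM in replicates 1 and 2. In those 3 groups, replicate 3 lay above both other replicates for 12 of the 42 collagen chains and below both for 8. Over all genes tested these shares were 18.6% and 15.1%. The labelled cell type, cardiomyocyte, was present: the cardiac troponin gene TNNT2 stood at 248 to 605 CPM in AM and 117 to 654 CPM in VM libraries. RNA of the targeted genes did not check the labels: LHX2 was at 0 to 6.92 CPM in all libraries, and ZNF711 was lower by amounts that did not pass the test. ZNF503 stood at 255, 367 and 269 CPM in AM ZNF503, next to 103, 111 and 123 in AM TRAC, opposite to a loss of its RNA, so directions for them are given relative to TRAC only.

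Levels between genes were compared as CPM per kilobase of coding length. COL3A1, the single chain of collagen III, ranked first in AM libraries, with 409.6 to 774 (median 546), and seventh in VM libraries, with 79.4 to 294 (median 166). COL2A1, the chain of cartilage collagen II, ranked first in VM libraries with 302 to 509 (median 370.1), and sixth in AM libraries with 184 to 275 (median 233). COL1A1, the major chain of collagen I, ranked second in both protocols, with 289 to 463 (median 356) in AM and 187 to 542 (median 303) in VM, ranges that overlapped. COL18A1, the multiplexin whose C-terminal fragment is endostatin, reached 217 to 378 (median 282) and 222 to 451 (median 282). By mean over the 24 libraries, the highest chain of the other classes was COL4A2 (basement membrane network), COL6A1 (beaded filament), COL22A1 (fibril-associated), COL8A1 (short-chain network), COL7A1 (anchoring fibril), COL23A1 (transmembrane) and COL26A1 (other collagens). In AM libraries alone, COL4A5 (median 188) stood above COL4A2 (149). There COL14A1 (24.6) and COL16A1 (14.5) stood above COL22A1 (4.1). Some ranks depended on the length used. Per kilobase of exon length, mean levels over all libraries were 101 for COL4A5, 90.2 for COL4A1 and 86.4 for COL4A2. By that mean COL1A1 had rank 4 among all chains, in place of rank 2 by coding length.

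**Figure D1:**
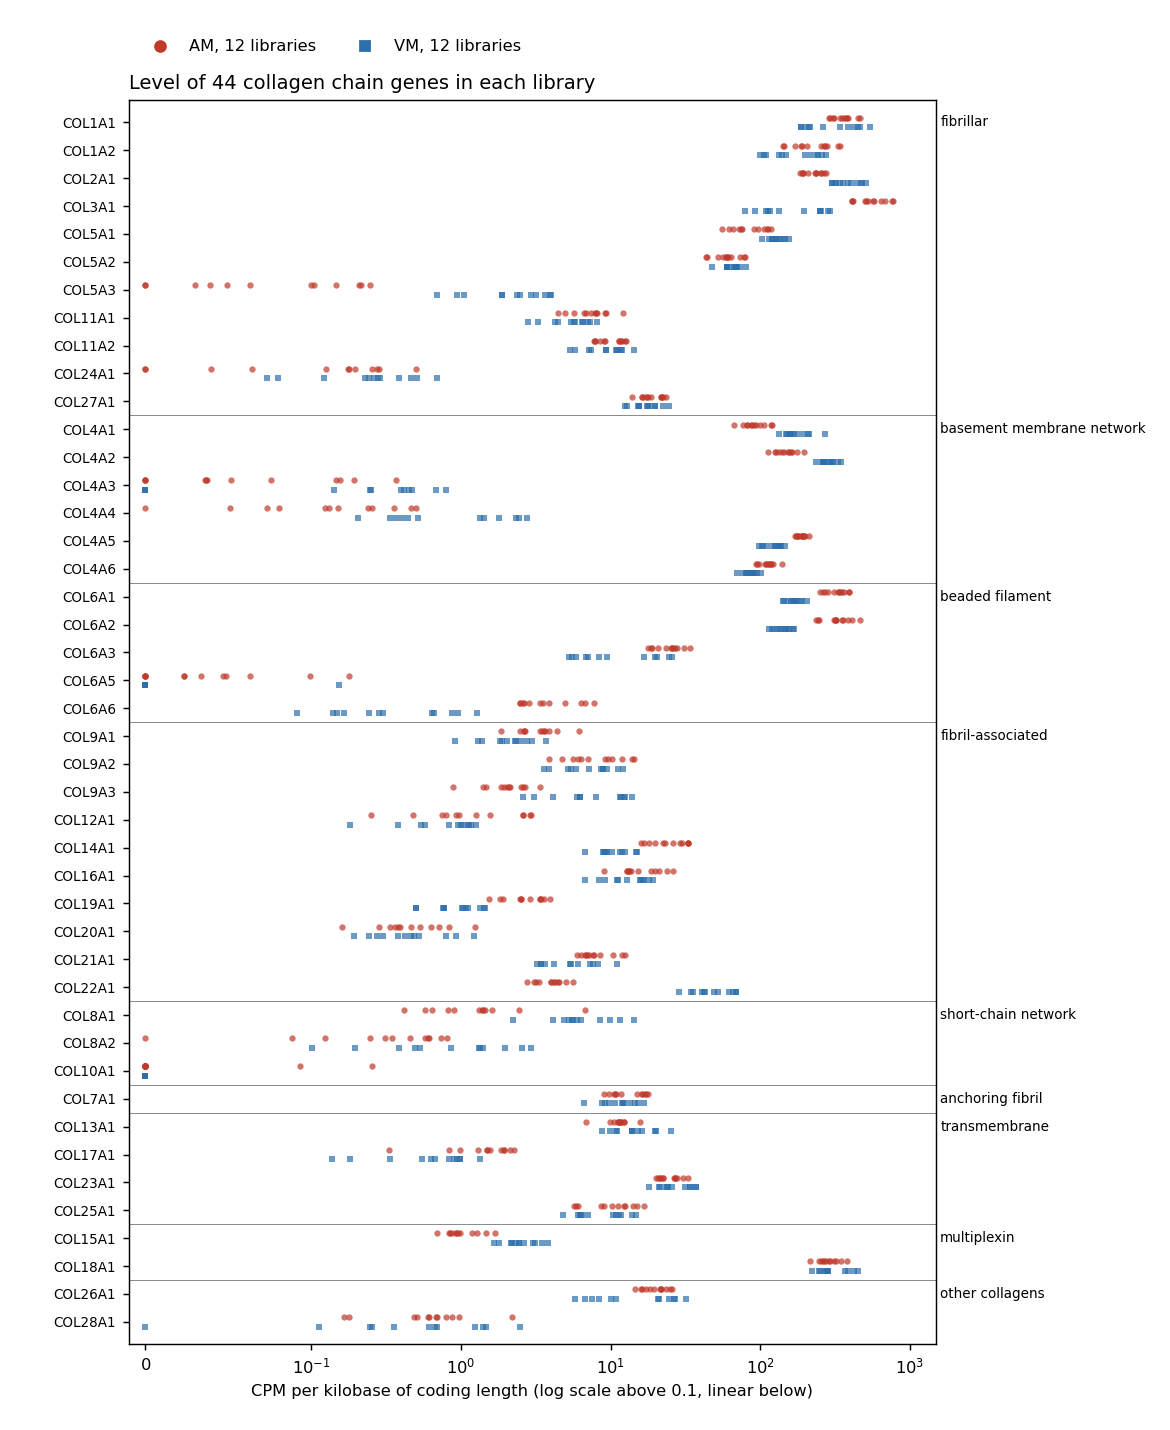
Level of each of the 44 collagen chain genes in CPM per kilobase of coding length (horizontal axis, logarithmic above 0.1 and linear below), with 1 point per library for the 12 AM and 12 VM libraries, grouped by class. COL3A1, COL6A1 and COL6A2 have AM points to the right of every VM point, and COL22A1, COL2A1, COL4A1 and COL4A2 have them to the left.

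The make-up of collagen RNA by class was then set side by side, with no test. Basement membrane chains made up 16.4 to 23.2 (median 19.1) percent of collagen CPM in AM and 24.5 to 28.9 (median 27) percent in VM libraries. Beaded filament chains made up 14.4 to 18 (median 15.9) percent in AM and 7.32 to 9.9 (median 8.37) percent in VM. Neither pair of ranges overlapped. Fibrillar chains made up 46.5 to 52.5 (median 49.6) percent and 36.5 to 52.6 (median 47.2) percent, which overlapped.

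The first comparison asked how the retinoic acid protocol and the other protocol differed within each target. In AM TRAC against VM TRAC, edgeR's quasi-likelihood test called 16 of 42 collagen chains, 8 higher and 8 lower in AM, where 11.3% of all genes tested were called (adjusted p below 0.05). With the replicate number as a block, 22 collagen chains were called (13 higher, 9 lower) against 19.4% of all genes. The calls numbered 15 of 42 in LHX2 (8 higher, 7 lower; 8.56% of all genes), 17 in ZNF503 (8 higher, 9 lower; 8.86%) and 15 in ZNF711 (7 higher, 8 lower; 13.2%). With the block these became 19 in LHX2 (15.7% of all genes), 20 in ZNF503 (14.9%) and 18 in ZNF711 (23.4%). By class in TRAC, calls higher and lower numbered 2 and 2 of 11 fibrillar chains, 1 and 2 of 6 basement membrane chains, 3 and 0 of 4 beaded filament chains and 1 and 2 of 10 fibril-associated chains. They numbered 1 and 1 of 4 transmembrane chains, 0 and 1 of 2 multiplexins and 0 of the 5 chains of the remaining classes. Median log2 fold changes over the 42 chains were 0.10, 0.32, 0.15 and 0.07 in TRAC, LHX2, ZNF503 and ZNF711, and over all genes −0.03, 0.00, 0.00 and 0.00. In 7 chains (COL3A1, COL4A5, COL6A1, COL6A2, COL6A6, COL14A1 and COL19A1) the 12 AM libraries lay above the 12 VM libraries, as in 2.69% of genes tested. In 5 chains (COL2A1, COL4A1, COL4A2, COL5A3 and COL22A1) they lay below, as in 1.56% of genes tested. Calls that held with each library of their 2 groups left out in turn numbered 11 of 16 in TRAC, 10 of 15 in LHX2, 12 of 17 in ZNF503 and 9 of 15 in ZNF711. Without VM TRAC replicate 3, 18 chains were called in TRAC, where 9.01% of all genes were called. Fitting the 6 TRAC libraries alone called 6.44% of all genes and 9 of the 39 chains that passed its count filter (COL3A1, COL4A2, COL5A3, COL6A1, COL6A2, COL6A6, COL14A1, COL15A1 and COL22A1).

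**Figure D2:**
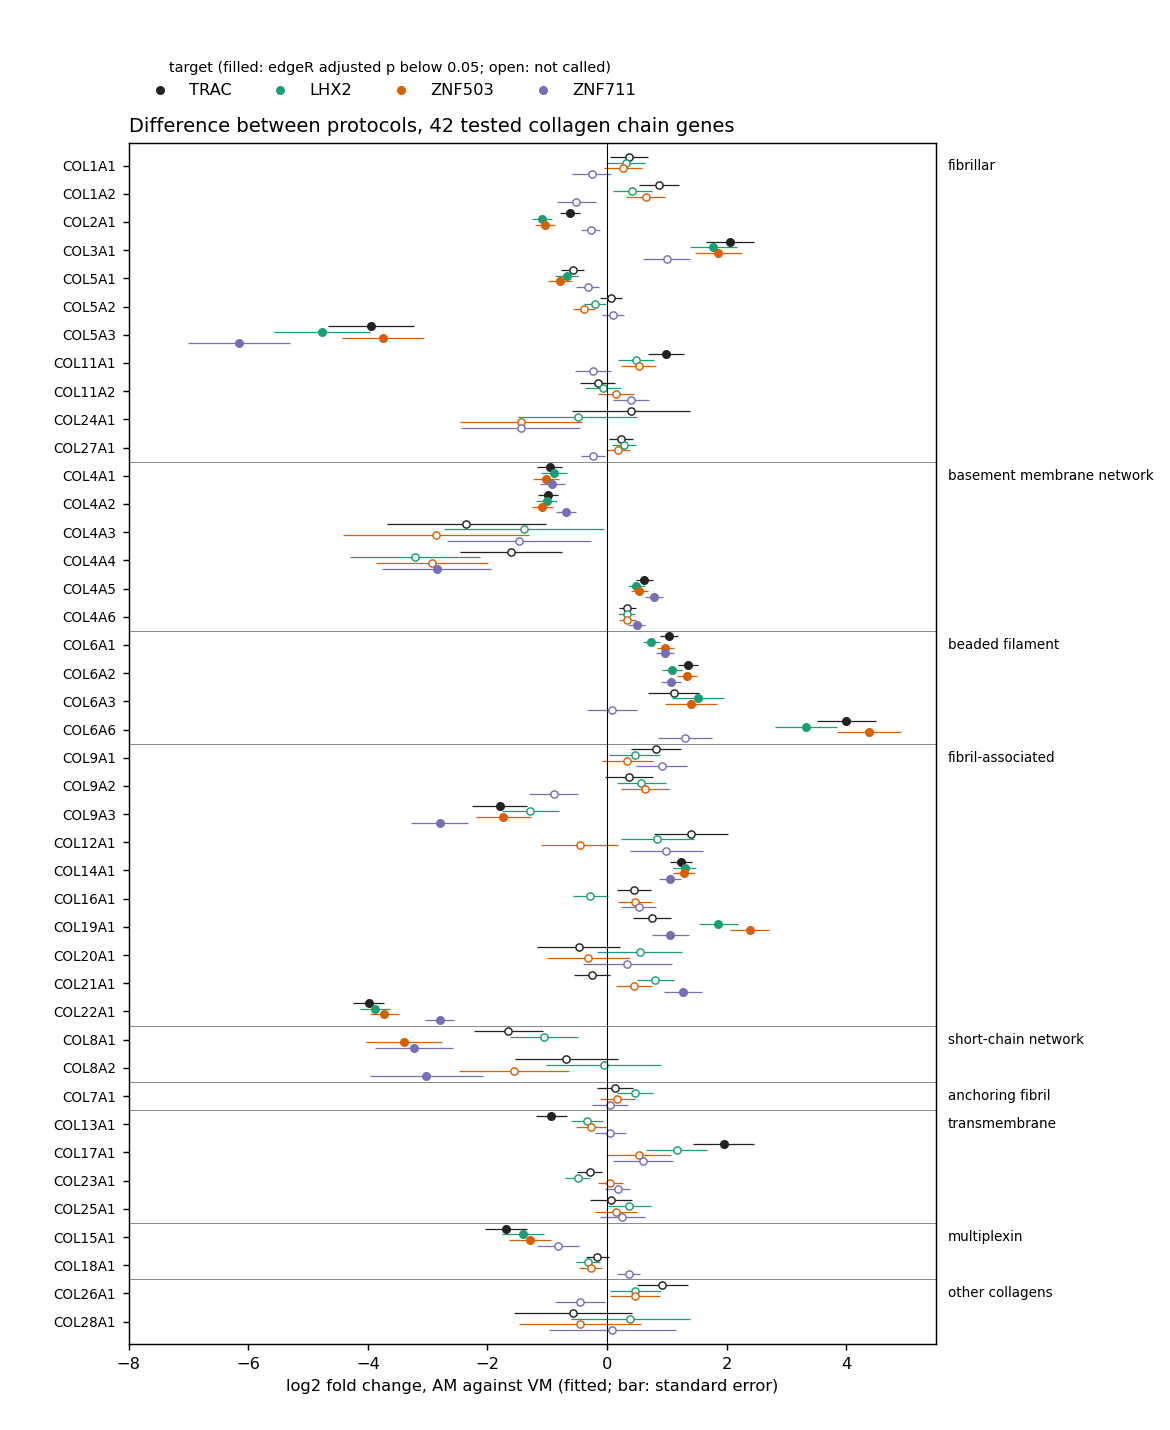
Fitted log2 fold change of AM against VM (horizontal axis; bars are standard errors) for the 42 tested collagen chains, grouped by class, with 1 point for each of the 4 targets, filled where the adjusted edgeR p was below 0.05. COL4A1 and COL4A2 lie left of 0 and COL4A5 and COL4A6 right of 0 in each target, and COL22A1 and COL5A3 lie far left of 0.

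Among fibrillar chains, collagen III was higher in AM while collagens II and V had chains that were lower. COL3A1 (chromosome 2, ENSG00000168542.16) stood at 2540.4, 3001 and 3370.3 CPM in AM TRAC, compared with 499, 349 and 1293 in VM TRAC. The groups did not overlap, and replicate 3 was the high one of the VM libraries. The log2 fold change was 2.06 (SE 0.40, adjusted edgeR p 0.00152), and the other targets had 1.78 in LHX2 (adjusted edgeR p 0.00604), 1.86 in ZNF503 (adjusted edgeR p 0.0038) and 0.99 in ZNF711 (adjusted edgeR p 0.0962). In ZNF711 the VM libraries were themselves higher, at 1103, 1115 and 1246 CPM, against 1822, 2237 and 2839 in AM ZNF711. COL1A1 did not pass the test in any target: it stood at 1586, 1678 and 2034 CPM in AM TRAC, compared with 892, 829 and 2381 in VM TRAC, which overlapped. COL1A2, the second chain of collagen I, had 1108, 1364 and 1148 against 436, 409.7 and 1134 CPM and a log2 fold change of 0.87 (SE 0.33, adjusted edgeR p 0.0977).

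COL2A1 stood at 1051, 858 and 1136 CPM in AM TRAC, compared with 1359.6, 1798 and 1519 CPM in VM TRAC. Its lowest VM library lay above its highest AM library, with a log2 fold change of −0.62 (SE 0.17, adjusted edgeR p 0.0147). In the other targets there were log2 fold changes of −1.08 in LHX2 (adjusted edgeR p 9.36e-05), −1.04 in ZNF503 (adjusted edgeR p 0.000134) and −0.28 in ZNF711 (adjusted edgeR p 0.297). The TRAC call ended without AM TRAC replicate 2 (adjusted edgeR p 0.114, log2 fold change −0.51) or VM TRAC replicate 2 (adjusted edgeR p 0.0854, log2 fold change −0.50). COL5A1, a chain of collagen V, which starts fibril assembly, had 409, 365 and 625 CPM in AM TRAC, compared with 661, 565 and 859 in VM TRAC. These overlapped, and the log2 fold change was −0.58 (SE 0.20, adjusted edgeR p 0.0608), with an adjusted edgeR p of 0.000894 under the block. In LHX2 and ZNF503 it was called lower, with log2 fold changes of −0.68 in LHX2 (adjusted edgeR p 0.0315) and −0.79 in ZNF503 (adjusted edgeR p 0.0112). Those calls ended without any 1 library other than AM LHX2 replicate 3 (adjusted edgeR p 0.0538 to 0.196) in LHX2 and without AM ZNF503 replicate 1 (adjusted edgeR p 0.0969, log2 fold change −0.61) in ZNF503. COL5A2, which pairs with it, had log2 fold changes of 0.06 in TRAC (adjusted edgeR p 0.892), −0.21 in LHX2 (adjusted edgeR p 0.594), −0.39 in ZNF503 (adjusted edgeR p 0.235) and 0.10 in ZNF711 (adjusted edgeR p 0.789), and an adjusted edgeR p of 0.0141 under the block in ZNF503. COL5A3, the third and least widespread chain of collagen V, was near the detection floor in AM TRAC, at 1.08, 0.156 and 0.547 CPM, and reached 9.85, 4.95 and 13 CPM in VM TRAC. It was called lower in each target, with log2 fold changes of −3.94 in TRAC (adjusted edgeR p 0.000551), −4.76 in LHX2 (adjusted edgeR p 0.000255) and −3.75 in ZNF503 (adjusted edgeR p 0.000582). AM ZNF711 held 1, 0 and 2 counts of it against 15.3, 20.7 and 16.7 CPM in VM ZNF711 (adjusted edgeR p 2.25e-05). Exons of COL5A3 share 270 bases (4.37%) with AC008742.1, and reads there cannot be assigned between them if strand was not used. COL11A1, a minor fibrillar chain of cartilage, had 44.1, 50.6 and 40.3 against 29.7, 15.3 and 23.1 CPM, which did not overlap, and a log2 fold change of 0.99 (SE 0.30, adjusted edgeR p 0.0333). It was not called in the other targets, and the TRAC call ended without any 1 library other than VM TRAC replicate 1 (adjusted edgeR p 0.0533 to 0.138). Of the other fibrillar chains, COL11A2 and COL27A1 were not called in any target at 40.2 to 65.9 and 77.7 to 130.3 CPM in AM libraries, and COL24A1 reached at most 3.57 CPM and was not called.

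COL4A1 and COL4A2, the ubiquitous basement membrane chains, were lower in AM in each target, and COL4A5, their more restricted relative on chromosome X, was higher. COL4A1 (ENSG00000187498.16) stood at 410.2, 440.3 and 598 CPM in AM TRAC, compared with 668, 790.2 and 1360.5 in VM TRAC, with no overlap and a log2 fold change of −0.96 (SE 0.21, adjusted edgeR p 0.00349). The other targets had log2 fold changes of −0.88 in LHX2 (adjusted edgeR p 0.00867), −1.03 in ZNF503 (adjusted edgeR p 0.00215) and −0.91 in ZNF711 (adjusted edgeR p 0.0054), and the LHX2 call ended without AM LHX2 replicate 1 (adjusted edgeR p 0.0729, log2 fold change −0.74). COL4A2 (ENSG00000134871.19) stood at 659.8, 745 and 906 CPM in AM TRAC, compared with 1206, 1589.5 and 1773 in VM TRAC, again with no overlap. Its log2 fold change was −0.98 (SE 0.17, adjusted edgeR p 0.000238), followed by −1.01 in LHX2 (adjusted edgeR p 0.000204), −1.08 in ZNF503 (adjusted edgeR p 8.42e-05) and −0.69 in ZNF711 (adjusted edgeR p 0.0072), and the ZNF711 call ended without AM ZNF711 replicate 1 (adjusted edgeR p 0.0535, log2 fold change −0.57). COL4A5 (ENSG00000188153.14) had 976, 1017 and 970.1 CPM in AM TRAC, compared with 682, 636 and 607 in VM TRAC. The AM libraries lay above the VM libraries, with a log2 fold change of 0.62 (SE 0.14, adjusted edgeR p 0.00514) in TRAC and 0.49 in LHX2 (adjusted edgeR p 0.0324), 0.54 in ZNF503 (adjusted edgeR p 0.0172) and 0.79 in ZNF711 (adjusted edgeR p 0.000634). The LHX2 call ended without any 1 library other than VM LHX2 replicate 1 (adjusted edgeR p 0.0546 to 0.232), and the ZNF503 call without AM ZNF503 replicate 2 (adjusted edgeR p 0.092, log2 fold change 0.47) or VM ZNF503 replicate 3 (adjusted edgeR p 0.125, log2 fold change 0.43). In a fit of the TRAC libraries alone, COL4A1 had a log2 fold change of −0.97 (adjusted edgeR p 0.0678) and COL4A5 0.61 (adjusted edgeR p 0.0517).

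COL4A6 (ENSG00000197565.17), read in the opposite direction from the shared COL4A5 region, had 588, 563 and 590.0 CPM in AM TRAC, compared with 391, 463 and 523 CPM in VM TRAC. These did not overlap, and the log2 fold change was 0.34 (SE 0.14, adjusted edgeR p 0.14), with an adjusted edgeR p of 0.0409 under the block. In the other targets it had log2 fold changes of 0.33 in LHX2 (adjusted edgeR p 0.184), 0.33 in ZNF503 (adjusted edgeR p 0.174) and 0.49 in ZNF711 (adjusted edgeR p 0.0233), and the ZNF711 call ended without any 1 library other than AM ZNF711 replicate 3 and VM ZNF711 replicate 1 (adjusted edgeR p 0.0526 to 0.13). COL4A3 and COL4A4, known from kidney, ear and eye basement membranes, were low. COL4A4 had 0.409, 1.21 and 2.34 CPM in AM ZNF711, compared with 9.15, 6.77 and 12.3 in VM ZNF711, with no overlap and a log2 fold change of −2.85 (SE 0.91, adjusted edgeR p 0.0382). That call ended without any 1 of the 6 libraries (adjusted edgeR p 0.053 to 0.147). Under the block COL4A4 was also called lower in LHX2 (adjusted edgeR p 0.00395) and ZNF503 (0.0117). DESeq2, without a block, called it lower in LHX2 (adjusted DESeq2 p 0.0276) and ZNF503 (0.0199) too. It had 0, 0.259 and 0.761 CPM in AM LHX2, compared with 2.63, 1.7 and 7.2 in VM LHX2. In ZNF503 it had 0.659, 1.28 and 0.371 CPM in AM, compared with 1.88, 2.25 and 14 in VM. Replicate 3 was the high one of the VM libraries in both. COL4A3 did not exceed 3.96 CPM in any library and was not called. Per coding length, COL4A1 stood to COL4A2 at 0.559 to 0.677 (median 0.614) in AM and 0.502 to 0.787 (median 0.591) in VM, ranges that overlapped. With exon length in place of coding length the medians were 1.03 and 0.993. COL4A5 stood to COL4A1 at 1.6 to 2.63 (median 2.12) in AM and 0.441 to 1.01 (median 0.759) in VM. This ratio was chosen after the values were seen, and its ranges did not overlap.

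**Figure D3:**
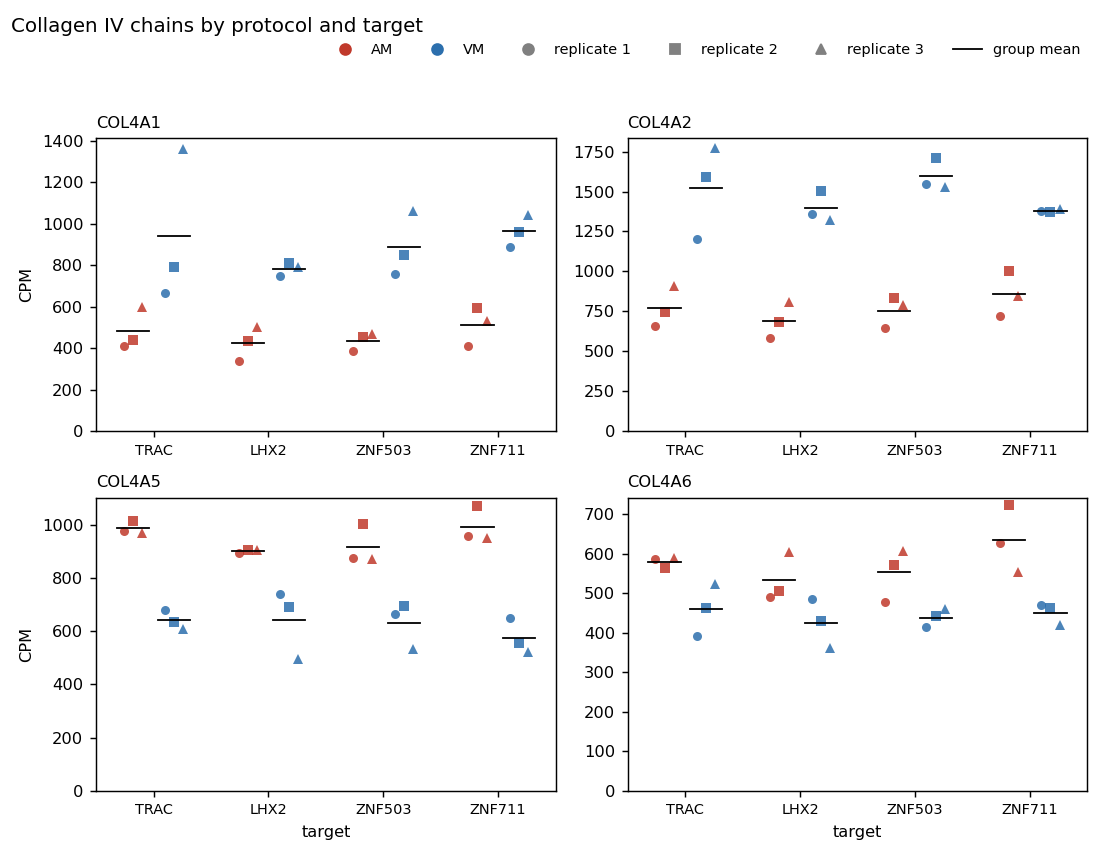
CPM (vertical axis, starting at 0) of COL4A1, COL4A2, COL4A5 and COL4A6 in each library by target (horizontal axis) and protocol, with symbols for the replicate number and a bar at the mean of each group of 3. VM points lie above AM points for COL4A1 and COL4A2, and AM points above VM points for COL4A5.

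The core chains of collagen VI were called higher in AM in each target. These are COL6A1 and COL6A2, with COL6A3 as their usual partner and COL6A5 or COL6A6 as alternatives to it. COL6A1 (chromosome 21, ENSG00000142156.16) stood at 1048, 1129 and 1209 CPM in AM TRAC, compared with 436, 636 and 581 in VM TRAC, with a log2 fold change of 1.03 (SE 0.15, adjusted edgeR p 2.75e-05). It was called higher in the other targets too, with log2 fold changes of 0.74 in LHX2 (adjusted edgeR p 0.0015), 0.98 in ZNF503 (adjusted edgeR p 5.69e-05) and 0.97 in ZNF711 (adjusted edgeR p 6.82e-05). COL6A2, its neighbour on chromosome 21, had 1100.0, 1267 and 1188 against 365, 505 and 517 CPM and a log2 fold change of 1.36 (SE 0.17, adjusted edgeR p 3.63e-06). LHX2, ZNF503 and ZNF711 gave log2 fold changes of 1.08 in LHX2 (adjusted edgeR p 9.36e-05), 1.33 in ZNF503 (adjusted edgeR p 5.14e-06) and 1.07 in ZNF711 (adjusted edgeR p 9.48e-05). For both genes, each of the 12 AM libraries lay above each of the 12 VM libraries, and no single library ended a call. COL6A3 had 248, 257 and 293 CPM in AM TRAC, compared with 65, 56.3 and 246 in VM TRAC, where replicate 3 was close to the AM libraries and the groups did not overlap. Its log2 fold change was 1.11 (SE 0.42, adjusted edgeR p 0.106), against 1.26 (adjusted edgeR p 0.0311) with the block and 2.14 (adjusted edgeR p 4.88e-05) without VM TRAC replicate 3. The other targets had log2 fold changes of 1.53 in LHX2 (adjusted edgeR p 0.0348), 1.40 in ZNF503 (adjusted edgeR p 0.0494) and 0.09 in ZNF711 (adjusted edgeR p 0.928), and the calls ended without any 1 library other than VM LHX2 replicate 3 (adjusted edgeR p 0.0714 to 0.126) in LHX2 and without any 1 library other than VM ZNF503 replicate 3 (adjusted edgeR p 0.0859 to 0.179) in ZNF503. COL6A6 had 42.8, 45.7 and 23.9 CPM in AM TRAC, compared with 1.64, 0.619 and 4.32 in VM TRAC, with a log2 fold change of 4.00 (SE 0.50, adjusted edgeR p 6.33e-06). The other targets had log2 fold changes of 3.33 in LHX2 (adjusted edgeR p 0.000119), 4.38 in ZNF503 (adjusted edgeR p 4.71e-06) and 1.31 in ZNF711 (adjusted edgeR p 0.0574), with an adjusted edgeR p of 0.023 under the block in ZNF711. COL6A5 had at most 1.4 CPM and was not tested. COL6A1 stood to COL6A2 per coding length at 0.845 to 1.15 (median 0.99) in AM and 1.08 to 1.3 (median 1.2) in VM. With exon length in place of coding length the AM median was 1.04.

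Fibril-associated chains were called in both directions, with COL22A1 lower and COL14A1 higher in AM in each target. COL22A1 (chromosome 8, ENSG00000169436.17), a collagen of tissue junctions such as that of muscle and tendon, stood at 19.5, 15 and 13.5 CPM in AM TRAC, compared with 256, 335 and 173 in VM TRAC. Its log2 fold change was −3.99 (SE 0.25, adjusted edgeR p 7.5e-11), with −3.88 in LHX2 (adjusted edgeR p 1.79e-10), −3.72 in ZNF503 (adjusted edgeR p 2.41e-10) and −2.80 in ZNF711 (adjusted edgeR p 1.87e-08) in the other targets. Over all libraries it ran from 13.5 to 27.4 CPM in AM and from 139 to 335 CPM in VM, with no overlap. COL14A1, which regulates fibril growth, went the other way, with 163, 178 and 157 CPM in AM TRAC, compared with 66.9, 80.4 and 63.9 in VM TRAC. Its log2 fold change was 1.24 (SE 0.18, adjusted edgeR p 4.23e-05), and it was called higher in the others with 1.29 in LHX2 (adjusted edgeR p 3.82e-05), 1.29 in ZNF503 (adjusted edgeR p 2.71e-05) and 1.04 in ZNF711 (adjusted edgeR p 0.000441). COL19A1, a low chain known from early muscle, had 6.51, 6.24 and 5.28 against 3.49, 3.51 and 3.73 CPM and a log2 fold change of 0.75 (SE 0.32, adjusted edgeR p 0.139). In the other targets it was called higher with log2 fold changes of 1.86 in LHX2 (adjusted edgeR p 0.000392), 2.38 in ZNF503 (adjusted edgeR p 1.92e-05) and 1.06 in ZNF711 (adjusted edgeR p 0.0241), and the ZNF711 call ended without any 1 library other than AM ZNF711 replicate 3 and VM ZNF711 replicate 1 (adjusted edgeR p 0.0634 to 0.101). Exons of COL19A1 share 70 bases (1.04%) with LMBRD1. Those of COL9A3, described below, share 45 bases (1.8%) with TCFL5, and those of COL15A1 share 137 bases (2.49%) with AL136084.3. As for COL5A3, reads there cannot be assigned between the genes if strand was not used.

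COL9A3, one of the collagen IX chains that decorate cartilage fibrils, had 4.16, 4.37 and 3.83 CPM in AM TRAC, compared with 6.36, 12.8 and 23.7 in VM TRAC. It was called lower in TRAC, with a log2 fold change of −1.80 (SE 0.46, adjusted edgeR p 0.0102). The other targets had log2 fold changes of −1.29 in LHX2 (adjusted edgeR p 0.101), −1.73 in ZNF503 (adjusted edgeR p 0.0144) and −2.80 in ZNF711 (adjusted edgeR p 0.000268), and the adjusted edgeR p in LHX2 was 0.0274 under the block. The TRAC call ended without VM TRAC replicate 3 (adjusted edgeR p 0.11, log2 fold change −1.21), and the ZNF503 call without any 1 library other than AM ZNF503 replicate 2, VM ZNF503 replicate 1 and VM ZNF503 replicate 2 (adjusted edgeR p 0.0646 to 0.108). COL9A2 was not called in any target, and stood to COL9A3 per coding length at 1.47 to 13.6 (median 3.99) in AM and 0.645 to 1.76 (median 0.944) in VM. COL21A1 was called higher in ZNF711, at 29.7, 21.7 and 35.9 against 17.3, 9.22 and 9.82 CPM, with a log2 fold change of 1.27 (SE 0.31, adjusted edgeR p 0.00767), and the call ended without VM ZNF711 replicate 2 (adjusted edgeR p 0.0527, log2 fold change 1.11) or VM ZNF711 replicate 3 (adjusted edgeR p 0.0516, log2 fold change 1.15). COL12A1 had 11.6, 7.34 and 27 CPM in AM TRAC, compared with 4.92, 1.65 and 10.3 in VM TRAC, which overlapped, and a log2 fold change of 1.40 (SE 0.62, adjusted edgeR p 0.163) that became 1.44 (adjusted edgeR p 0.00802) with the block. COL16A1 had 102, 94.7 and 90.0 against 75.9, 80.7 and 53.8 CPM and a log2 fold change of 0.45 (SE 0.28, adjusted edgeR p 0.373), with 0.48 (adjusted edgeR p 0.0275) under the block. Under the block COL16A1 was also called higher in ZNF503 (adjusted edgeR p 0.037) and ZNF711 (0.0106). COL9A1 and COL20A1 were not called in any target.

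**Figure D4:**
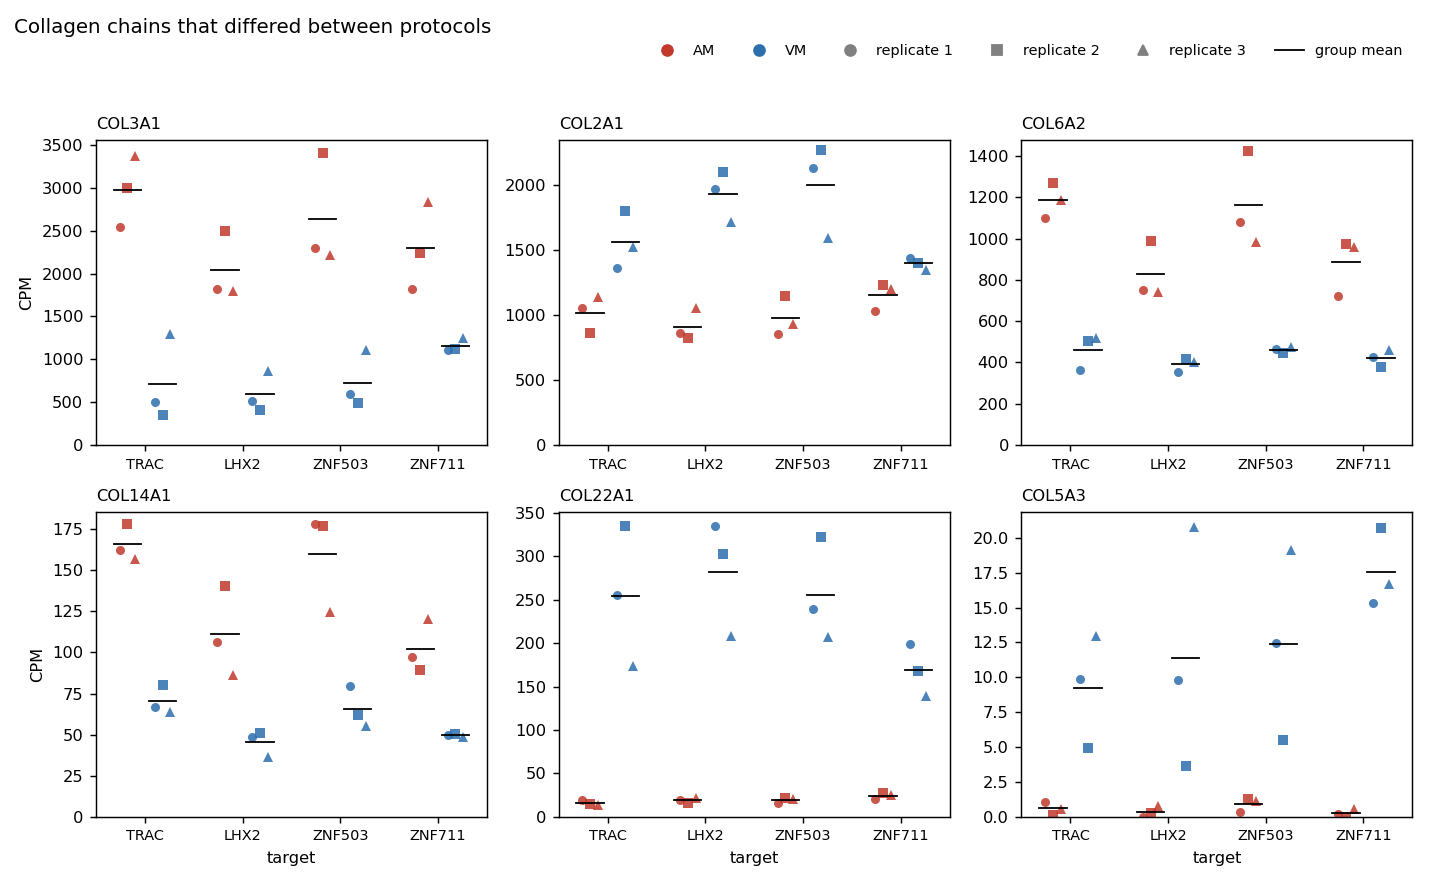
CPM (vertical axis, starting at 0) of COL3A1, COL2A1, COL6A2, COL14A1, COL22A1 and COL5A3 in each library by target (horizontal axis) and protocol, with symbols for the replicate number and a bar at the mean of each group of 3. AM and VM points do not overlap for any of the 6 genes, with AM above VM for COL3A1, COL6A2 and COL14A1 and below it for COL2A1, COL22A1 and COL5A3.

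Chains of the smaller classes gave fewer calls. COL15A1, the multiplexin of muscle and vessel basement membranes, was lower in AM at 2.89, 3.43 and 4.92 CPM in AM TRAC, next to 16, 7.43 and 13 in VM TRAC, with a log2 fold change of −1.69 (SE 0.35, adjusted edgeR p 0.00172). The other targets had log2 fold changes of −1.41 in LHX2 (adjusted edgeR p 0.0115), −1.29 in ZNF503 (adjusted edgeR p 0.0186) and −0.82 in ZNF711 (adjusted edgeR p 0.12), and the calls ended without any 1 library other than AM LHX2 replicate 3, VM LHX2 replicate 2 and VM LHX2 replicate 3 (adjusted edgeR p 0.061 to 0.0694) in LHX2 and without any 1 library other than VM ZNF503 replicate 1 and VM ZNF503 replicate 2 (adjusted edgeR p 0.0543 to 0.0709) in ZNF503. COL18A1 had 1443, 1522 and 1687 against 1503, 2220.3 and 1489 CPM, which overlapped, and was not called, though in ZNF711 the block gave a log2 fold change of 0.35 (adjusted edgeR p 0.0479). COL8A1, a short-chain collagen of vessel walls, had 5.42, 3.12 and 3.1 against 12.3, 4.95 and 19.1 CPM in TRAC, and was called lower in ZNF503 and ZNF711 with log2 fold changes of −3.40 in ZNF503 (adjusted edgeR p 0.000928) and −3.23 in ZNF711 (adjusted edgeR p 0.00184). COL8A2 was called lower in ZNF711, at 0, 1.21 and 0.52 against 2.97, 6.21 and 5.43 CPM, with a log2 fold change of −3.02 (SE 0.94, adjusted edgeR p 0.0334), and the call ended without any 1 library other than AM ZNF711 replicate 2 and VM ZNF711 replicate 1 (adjusted edgeR p 0.0917 to 0.133). The transmembrane chain COL13A1, found at neuromuscular and myotendinous junctions, had 26.8, 23.1 and 14.9 CPM in AM TRAC, compared with 55.4, 33.4 and 35.6 in VM TRAC, with a log2 fold change of −0.94 (SE 0.26, adjusted edgeR p 0.0183), and was not called in the other targets. That call ended without any 1 library other than AM TRAC replicate 1, VM TRAC replicate 2 and VM TRAC replicate 3 (adjusted edgeR p 0.0507 to 0.128). COL17A1, a hemidesmosome component, had 9.58, 8.74 and 8.75 against 2.46, 0.619 and 3.73 CPM and a log2 fold change of 1.95 (SE 0.51, adjusted edgeR p 0.0132), a call that ended without VM TRAC replicate 2 (adjusted edgeR p 0.0615, log2 fold change 1.53). COL26A1 had 24.4, 31.1 and 33.2 against 11.1, 7.63 and 27.3 CPM and a log2 fold change of 0.92 (SE 0.42, adjusted edgeR p 0.181), with 1.03 (adjusted edgeR p 0.0364) under the block and 1.66 (adjusted edgeR p 0.0122) without VM TRAC replicate 3. COL7A1, the anchoring fibril chain of epithelia, had 149, 104 and 93.1 against 128, 81.1 and 107 CPM, and COL23A1 had 43.4, 42.8 and 36.3 against 60.3, 55.3 and 34.7. Each overlapped in TRAC, and both were called under the block in LHX2, with a log2 fold change of 0.50 (adjusted edgeR p 0.043) for COL7A1 and −0.48 (adjusted edgeR p 0.039) for COL23A1. COL25A1 and COL28A1 were not called in any target.

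The balance of collagen III and collagen I was described by a ratio, with no test. Per coding length, COL3A1 stood to COL1A1 at 1.35 to 1.79 (median 1.61) in AM libraries and 0.42 to 0.655 (median 0.547) in VM libraries, with no overlap, a ratio chosen after the values were seen. COL1A1 stood to COL1A2, its partner in the collagen I trimer, at 1.15 to 2.17 (median 1.58) and 1.54 to 2.06 (median 1.75), which overlapped. COL5A1 stood to COL5A2 at 1.05 to 2.11 (median 1.44) in AM and 1.5 to 2.53 (median 1.98) in VM, which also overlapped.

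Genes that fold, export, trim and bind collagen were counted in AM TRAC against VM TRAC. Over all genes tested, 6.18% were called higher and 5.12% lower (10.2% and 9.2% with the block), with a median log2 fold change of −0.03. Of 16 tested genes for chain folding and hydroxylation, 0 were called higher and 3 lower (median log2 fold change −0.27). They were the prolyl hydroxylase subunit P4HA2 with a log2 fold change of −0.75 (SE 0.21, adjusted edgeR p 0.0224), the chaperone FKBP10 with −0.57 (SE 0.18, adjusted edgeR p 0.0386) and the lysyl hydroxylase PLOD1 with −0.45 (SE 0.14, adjusted edgeR p 0.0401). With the block, 6 were called lower. None of 5 export genes was called, and 2 were called lower with the block. Of 12 genes for propeptide removal and cross-linking, 0 were higher and 2 lower (median −0.36): the lysyl oxidases LOXL2 with a log2 fold change of −1.16 (SE 0.22, adjusted edgeR p 0.000657) and LOX with −3.69 (SE 0.92, adjusted edgeR p 0.0142). LOX stood at 1.99, 1.72 and 7.65 CPM in AM TRAC, compared with 22.6, 18.4 and 103 in VM TRAC. With the block, 2 genes of this list were called higher and 3 lower.

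The counts of the next lists stand beside the same shares of all genes, 6.18% higher and 5.12% lower (10.2% and 9.2% with the block). Of 13 basement membrane partners, 1 was higher and 4 lower (median −0.31). The laminin chain LAMA4 was lower with a log2 fold change of −2.12 (SE 0.27, adjusted edgeR p 1.44e-05), the linker protein NID1 was lower with −0.59 (SE 0.11, adjusted edgeR p 0.000994), and the laminin chain LAMB2 was higher with 0.60 (SE 0.12, adjusted edgeR p 0.00133). With the block, 2 partners were called higher and 5 lower. None of 10 fibril partners was called (2 higher and 1 lower with the block). Of 9 collagen receptors, DDR2, a receptor for fibrillar collagen, was higher with a log2 fold change of 1.36 (SE 0.22, adjusted edgeR p 0.000127), and the uptake receptor MRC2 was lower with −0.48 (SE 0.15, adjusted edgeR p 0.0419). With the block, 4 receptors were called lower. Of 8 collagen breakdown genes, TIMP3, an inhibitor of matrix proteases, was lower with a log2 fold change of −0.58 (SE 0.19, adjusted edgeR p 0.0439). Among 10 collagen gene regulators, the growth factor TGFB2 was higher with a log2 fold change of 0.58 (SE 0.14, adjusted edgeR p 0.00877), and with the block 1 regulator was called higher and 1 lower.

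Markers of other cell types were summed in each library, and their calls were counted in AM TRAC against VM TRAC. There 6.18% of all genes tested were called higher and 5.12% lower (10.2% and 9.2% with the block). Of the 9 sums, that of fibroblast markers had AM and VM ranges that did not overlap. Summed fibroblast markers were 616 to 775 (median 711) CPM in AM and 224 to 439 (median 288) CPM in VM libraries, with 2 of 9 called higher in TRAC and 0 lower. The defining fibroblast marker PDGFRA was at 381 to 487 CPM in AM and 51.7 to 115 CPM in VM. The separation of the sums rested on PDGFRA, and sums of the other fibroblast markers overlapped between AM and VM. Summed endoderm markers were 239.6 to 2199 (median 724) CPM in AM and 1427 to 27598 (median 6262) CPM in VM, with 1 of 12 called higher and 6 lower. AFP, its defining marker, was at 76.7 to 899 and 906 to 15346 CPM. The cardiomyocyte sum was 15360.0 to 30733 (median 21782) CPM in AM and 12098 to 42873 (median 29750.0) CPM in VM (0 higher, 4 lower of 13). The smooth muscle marker MYH11 was at 103 to 333 CPM in AM and 0 to 7.0 CPM in VM (list: 2 higher, 0 lower of 8; sums 761 to 1777 and 615 to 1091 CPM). Endothelial markers gave 5 higher and 0 lower of 10 (sums 449 to 855 and 355 to 504 CPM), and PECAM1 was at 31.5 to 65.7 and 35.5 to 69.7 CPM. CDH5, also a defining endothelial marker, was at 62.7 to 133 CPM in AM and 29.7 to 72.6 CPM in VM, ranges that overlapped. Epicardial markers gave 2 higher and 0 lower of 8 (sums 271 to 530.1 and 324 to 745 CPM), while WT1, the defining one, was at 0 to 2.93 and 0.188 to 4.6 CPM. Chondrogenic markers gave 0 higher and 2 lower of 7 (sums 132 to 197 and 118 to 199 CPM), and ACAN, which defines cartilage, was at 0 to 3.42 and 0.638 to 18.4 CPM. Neural markers gave 2 higher and 0 lower of 6 (sums 555 to 985 and 449 to 721 CPM), with SOX2 at 2.57 to 13.9 and 0.376 to 14.3 CPM. Schwann and neural crest markers gave 0 calls of 7 (2 higher with the block; sums 98.2 to 226 and 79.5 to 249.6 CPM), with SOX10 at 0 to 4.03 and 1.03 to 32.2 CPM. With the block, calls higher and lower became 3 and 0 for fibroblast, 1 and 7 for endoderm, 0 and 5 for cardiomyocyte, 7 and 0 for endothelial, 2 and 1 for epicardial and 3 and 0 for neural markers. The part of these cell types in the collagen differences was not tested, and in bulk RNA fewer cells of a type and less RNA per cell cannot be told apart.

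The second comparison asked whether collagen chains differed between each edited target and TRAC within a protocol. In the main fit, over all 24 libraries without a replicate block, edgeR called no chain of 42 in any of the 6 comparisons. Nor did it call any in the 3 interactions of target with protocol. DESeq2, also without a block, called 0 in each. Fits with a block called chains in some of them. So did some fits without a block that used no filter, only the compared groups or fewer libraries, as given below. The comparisons share the TRAC libraries of their protocol. In AM LHX2 against AM TRAC, 0% of all genes were called, and 5 chains and 1372 genes had an unadjusted p below 0.05. The CPM of 11 chains in AM LHX2 lay below those in AM TRAC without overlap, and of 1 chain above, against 9.72% and 9.28% of genes tested. With the replicate block, 4 chains were called lower and 0 higher, where 1.13% of all genes were called. The same 4 were called with a block in each protocol (3.11% of all genes). The core collagen VI chain COL6A1 stood at 776, 875 and 811 CPM in AM LHX2, compared with 1048, 1129 and 1209 in AM TRAC, with a log2 fold change of −0.46 (SE 0.10, adjusted edgeR p 0.024) under the block. Its partner COL6A2 had 751, 990.2 and 739.8 against 1100.0, 1267 and 1188 CPM and a log2 fold change of −0.52 (SE 0.12, adjusted edgeR p 0.026) under the block. The fibril-associated chain COL16A1 had 64.2, 65.9 and 43.5 against 102, 94.7 and 90.0 CPM and a log2 fold change of −0.75 (SE 0.16, adjusted edgeR p 0.0172). COL14A1 had 106, 141 and 86.5 against 163, 178 and 157 CPM and a log2 fold change of −0.59 (SE 0.15, adjusted edgeR p 0.0378). For each of these 4 chains the AM LHX2 libraries lay below the AM TRAC libraries. In the main fit, without the block, their adjusted edgeR p was 0.405 to 0.568. With the compared groups alone and no block, the adjusted edgeR p was 0.0291 for COL16A1, 0.0467 for COL6A1 and 0.0494 for COL6A2. COL14A1 was not called in that fit. Summed fibroblast markers were 616, 665 and 669.7 CPM in AM LHX2, compared with 668, 775 and 769 in AM TRAC, and summed smooth muscle markers 761, 964 and 854 against 1105, 1159 and 1777 CPM. Their part in the collagen values was not tested. In VM LHX2 against VM TRAC, 3 chains and 463 genes had an unadjusted p below 0.05 and 0% of genes were called. COL14A1 was among them, at 48.3, 51 and 36.4 against 66.9, 80.4 and 63.9 CPM and a log2 fold change of −0.64 (SE 0.19, adjusted edgeR p 1, unadjusted p 0.00206), and the interaction of LHX2 with protocol called 0 chains (2 chains and 660 genes at an unadjusted p below 0.05, 0% of genes called).

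ZNF711 libraries gave the most collagen chains near the threshold. In VM ZNF711 against VM TRAC, 11 chains and 1666 genes had an unadjusted p below 0.05, and 0.0169% of all genes were called. COL26A1 stood at 35.1, 42.1 and 35.5 CPM in VM ZNF711, compared with 11.1, 7.63 and 27.3 in VM TRAC, without overlap, with a log2 fold change of 1.27 (SE 0.42, adjusted edgeR p 0.307). The block gave a log2 fold change of 1.41 (SE 0.34, adjusted edgeR p 0.0327), one of 3 chains called (1 higher, 2 lower), where 2.27% of all genes were called. COL13A1 had 30.2, 23.7 and 19.2 against 55.4, 33.4 and 35.6 CPM, also without overlap, and a log2 fold change of −0.76 (SE 0.19, adjusted edgeR p 0.0276) with the block. COL16A1 had 61.6, 43.8 and 32.6 against 75.9, 80.7 and 53.8 CPM, which overlapped, and a log2 fold change of −0.63 (SE 0.16, adjusted edgeR p 0.0319) with the block. Without the block the adjusted edgeR p of COL13A1 was 0.307 and that of COL16A1 0.53.

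A block in each protocol separately called 12 chains in VM ZNF711 (5 higher, 7 lower), where 8.35% of all genes were called. The higher chains were COL3A1, COL6A6, COL9A3, COL11A1 and COL26A1, and the lower ones COL13A1, COL14A1, COL16A1, COL18A1, COL21A1, COL22A1 and COL23A1. COL3A1 stood at 1103, 1115 and 1246 CPM in VM ZNF711, compared with 499, 349 and 1293 in VM TRAC, with a log2 fold change of 0.93 (SE 0.26, adjusted edgeR p 0.0428) in that fit. COL6A6 had 5.94, 8.65 and 6.48 against 1.64, 0.619 and 4.32 CPM and a log2 fold change of 1.58 (SE 0.43, adjusted edgeR p 0.0222). COL9A3 had 28.7, 24.3 and 25.5 against 6.36, 12.8 and 23.7 CPM and a log2 fold change of 1.02 (SE 0.32, adjusted edgeR p 0.0347). Among the lower chains, COL21A1 had 17.3, 9.22 and 9.82 against 23.6, 31.6 and 20.9 CPM and a log2 fold change of −1.07 (SE 0.24, adjusted edgeR p 0.00251). COL22A1 had 199, 168 and 139 against 256, 335 and 173 CPM and a log2 fold change of −0.56 (SE 0.13, adjusted edgeR p 0.00811). COL18A1 had 1319.6, 1301 and 1167 against 1503, 2220.3 and 1489 CPM and a log2 fold change of −0.43 (SE 0.10, adjusted edgeR p 0.00476). COL11A1 had 44.5, 31.4 and 35.7 against 29.7, 15.3 and 23.1 CPM, without overlap. COL14A1 had 49.7, 50.2 and 48.7 against 66.9, 80.4 and 63.9 CPM, without overlap. COL23A1 had 34.1, 39.5 and 29.3 against 60.3, 55.3 and 34.7 CPM, which overlapped.

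In the fit without a block, the number of chains called in VM ZNF711 against VM TRAC depended on VM TRAC replicate 3. The block fits were not run without that library. COL1A1 stood at 1869, 1699.7 and 2054 CPM in VM ZNF711, compared with 892, 829 and 2381 in VM TRAC, so replicates 1 and 2 of VM TRAC were low and replicate 3 was above the ZNF711 libraries. COL6A3 had 236, 189 and 195 against 65, 56.3 and 246 CPM, with the same order of libraries. Without VM TRAC replicate 3, 9 chains were called, 6 higher (COL1A1, COL1A2, COL3A1, COL6A3, COL6A6 and COL26A1) and 3 lower (COL21A1, COL22A1 and COL23A1), where 3.44% of all genes were called. COL3A1 then had a log2 fold change of 1.43 (adjusted edgeR p 0.0214), COL6A6 2.60 (adjusted edgeR p 0.02), COL26A1 1.99 (adjusted edgeR p 0.0156) and COL22A1 −0.82 (adjusted edgeR p 0.033). Without replicate 3 of every group, 6 chains were called, the same 6 that were higher, where 4.97% of all genes were called. Endoderm markers summed to 9791, 19083 and 27598 CPM in VM ZNF711, compared with 3279.9, 2972 and 25614 in VM TRAC, and cardiomyocyte markers to 17990.0, 16393 and 12098 against 42873, 38636 and 15982 CPM. Fibroblast markers summed to 357, 412 and 439 CPM in VM ZNF711, compared with 225, 224 and 411 in VM TRAC, and Schwann and neural crest markers to 236, 249.6 and 231 against 85.1, 88.5 and 199 CPM. Their part in the collagen values was not tested.

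**Figure D5:**
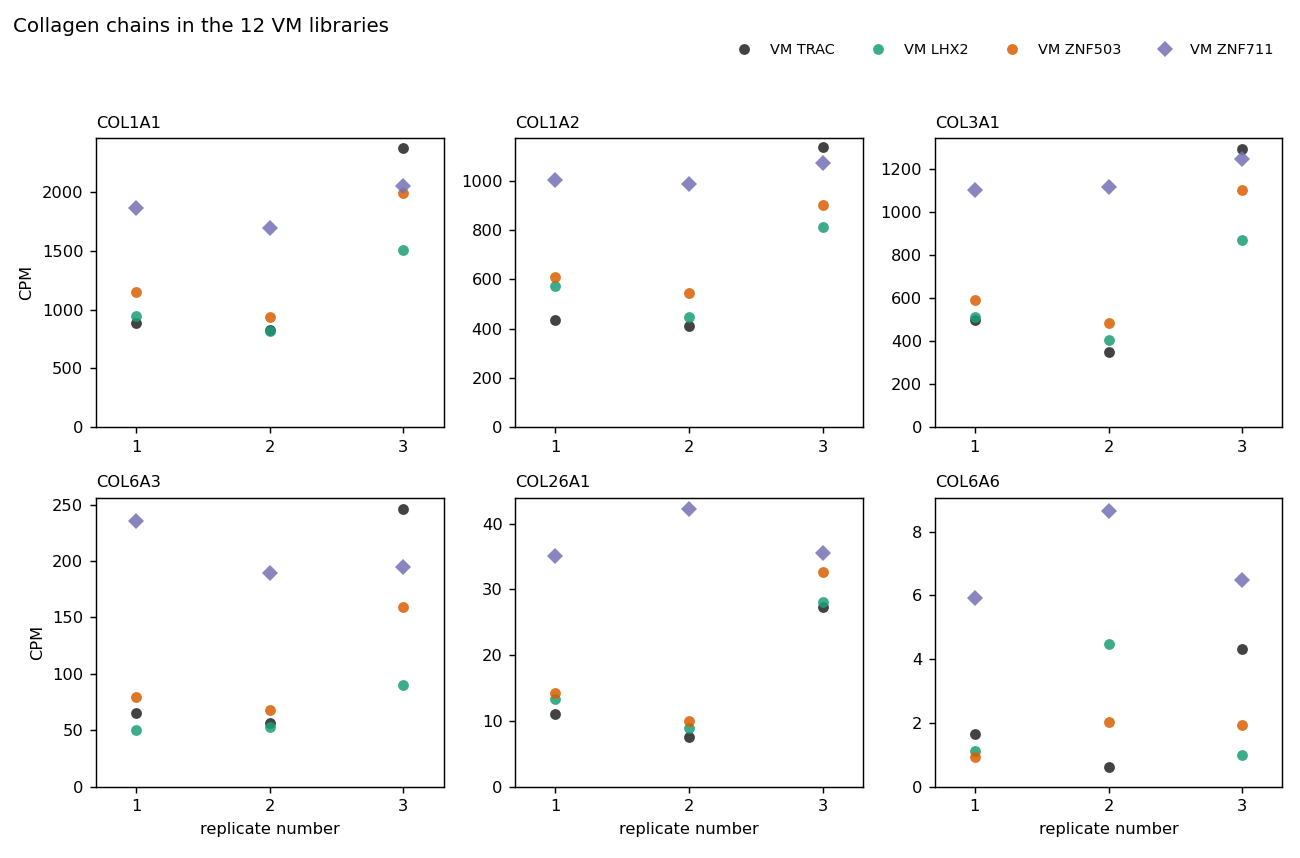
CPM (vertical axis, starting at 0) of COL1A1, COL1A2, COL3A1, COL6A3, COL26A1 and COL6A6 in the 12 VM libraries by replicate number (horizontal axis, a label without order), with 1 colour for each target. In COL1A1, COL1A2, COL3A1, COL6A3 and COL26A1, the TRAC, LHX2 and ZNF503 points of replicate 3 lie above those of replicates 1 and 2, while the ZNF711 points are high in each replicate.

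In AM ZNF711 against AM TRAC, 7 chains and 618 genes had an unadjusted p below 0.05, and 0% of genes were called. COL14A1 had 97, 89.6 and 120.5 CPM in AM ZNF711, compared with 163, 178 and 157 in AM TRAC, without overlap, and a log2 fold change of −0.70 (SE 0.18, adjusted edgeR p 1, unadjusted p 0.000663). With a block in each protocol it was called lower, as was COL6A2, with a log2 fold change of −0.69 (SE 0.14, adjusted edgeR p 0.0215) and −0.43 (SE 0.10, adjusted edgeR p 0.0306), where 0.53% of genes were called. COL1A2 had 594, 706 and 843 CPM in AM ZNF711, next to 1108, 1364 and 1148 in AM TRAC. Its VM values were 1002, 985 and 1070.1 CPM in VM ZNF711, next to 436, 409.7 and 1134 in VM TRAC. COL9A2 had 9.82, 14.7 and 8.07 against 19, 29.7 and 12.6 CPM in AM, and 23.2, 18.4 and 19.4 against 11.3, 10.7 and 25.2 in VM. The interaction of ZNF711 with protocol called 0 chains, with 8 chains and 1135 genes at an unadjusted p below 0.05, and 0.00564% of genes called. The block in each protocol called 8 chains (3 higher, 5 lower in AM relative to VM), where 2.54% of genes were called. They were COL13A1, COL21A1 and COL22A1, with positive interaction terms, and COL1A2, COL6A6, COL9A2, COL11A1 and COL26A1, with negative ones. COL6A6 had an interaction term of −2.63 (SE 0.53, adjusted edgeR p 0.00604) on the log2 scale and COL22A1 1.15 (SE 0.22, adjusted edgeR p 0.00428) in that fit. With no block and without VM TRAC replicate 3, 3 chains were called in the interaction, COL1A2, COL6A3 and COL6A6, where 0.151% of all genes were called. Endoderm markers summed to 1218, 1332 and 2199 CPM in AM ZNF711, compared with 447, 358 and 1203 in AM TRAC, without overlap. Cardiomyocyte markers summed to 27951, 30733 and 21398 against 19222, 20156 and 22687 CPM, and fibroblast markers to 716, 711 and 753 against 668, 775 and 769 CPM. Their part in the collagen values was not tested.

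In the libraries labelled ZNF503, 3 chains and 309 genes in AM, and 2 chains and 274 genes in VM, had an unadjusted p below 0.05, with 0% of genes called in each. The interaction with protocol called 0 chains, with 2 chains and 346 genes at an unadjusted p below 0.05 and 0% of genes called. COL19A1 stood at 11.5, 11.5 and 13.6 CPM in AM ZNF503, compared with 6.51, 6.24 and 5.28 in AM TRAC, without overlap, with a log2 fold change of 1.02 (SE 0.30, adjusted edgeR p 1, unadjusted p 0.00234). COL17A1 had 1.48, 4.39 and 3.71 against 9.58, 8.74 and 8.75 CPM, also without overlap, and a log2 fold change of −1.50 (SE 0.50, adjusted edgeR p 1, unadjusted p 0.00613). COL21A1 in VM ZNF503 had 12, 21.9 and 10.5 CPM against 23.6, 31.6 and 20.9 in VM TRAC, which overlapped, and a log2 fold change of −0.77 (SE 0.31, adjusted edgeR p 1, unadjusted p 0.0187). These 3 chains were picked out after their values were seen.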

How the data were processed

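The data were RNA-seq counts per gene for 24 libraries in 8 groups (4 targets in 2 protocols, 3 replicates each). The count table was deposited by the authors with reads mapped to GRCh38 by STAR, per the submitters' processing notes; the counting tool and its strand setting are not given in the sources used here. The labels name both poly(A) RNA and a ribosomal RNA depletion kit, so the selection of RNA is unsettled. Gene symbols were matched by Ensembl identifier for 62686 of 62757 genes.

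The deposited counts were fitted with edgeR 4.0.16 (R 4.3.3): quasi-likelihood test, 1 mean per group over the 24 libraries, TMM scaling, filterByExpr, and Benjamini-Hochberg adjustment over the 17724 genes tested in each of 13 comparisons, called below 0.05. The fit without a block was tested on simulated counts with the same dispersion for all genes and no replicate effect. The block fits were not tested in this way. Total counts per library, 2899786 to 7438010, limit the precision of low chains, and the biological coefficient of variation was 25% (16.9% with the replicate block). Libraries of a group differed by more than sampling noise (chi-square per degree of freedom 4.33 to 44.2), so none was treated as a repeat of another.

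Replicate numbers are shared across groups. Deviations of same-numbered libraries from their group means correlated at 0.124 to 0.787 over 11462 genes in each pair of groups compared. The range was 0.124 to 0.52 between AM and VM, 0.199 to 0.485 within AM and 0.314 to 0.787 within VM. All lay above 0.1, so the numbers were taken to pair the libraries, though this limit does not show pairing. The fit with the replicate number as a block is given where it changed a call. Levels were set between genes per kilobase of the longest coding sequence. Alternatives were other scalings and filters, DESeq2 1.42.0, the compared groups alone, replicate blocks, and leaving out libraries. The chain ratios and levels by exon length were added after seeing the data.

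The members, gene lists and markers were chosen with earlier results of these data known. Values per library are given for chains called in AM TRAC against VM TRAC or in a comparison with TRAC, with or without the block, and for the highest chain of each class. From each partner list, up to 3 called genes with the lowest p are named. Promoters were searched on both strands for each motif spelled out in the results.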

Additional observations from a re-analysis of the deposited data

How the results depend on the processing

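No fold change of a called chain changed direction under the alternatives run. For AM TRAC against VM TRAC, fitting the compared groups alone called 9 collagen chains in place of 16, all 9 among the 16, and leaving out 1 library gave 13 to 18. No filter gave 22 chains and DESeq2 18, each with all 16 among them. Without replicate 3 of every group 20 chains were called, 14 of them among the 16. The compared groups alone called 6.44% of all genes, next to 11.3% in the main fit. Leaving out 1 library gave 10 to 13 chains in LHX2, 13 to 17 in ZNF503 and 10 to 14 in ZNF711. With the compared groups alone, 14 chains were called in LHX2 in place of 15, 16 in ZNF503 in place of 17 and 19 in ZNF711 in place of 15. For AM LHX2 against AM TRAC, 0 chains became 1 with no filter and 4 with the compared groups alone. They became 4 with the replicate block and the same 4 with a block in each protocol. COL14A1 was among those 4 but was not called with the compared groups alone. The replicate block and the block in each protocol called 1.13% and 3.11% of all genes. For AM ZNF711 against AM TRAC, 0 became 2 with no filter, 1 with the compared groups alone, 2 with a block in each protocol (0.53% of all genes) and 1 without replicate 3 of every group (0 without any single library). For VM LHX2 against VM TRAC, 0 became 1 with no filter. For VM ZNF711 against VM TRAC, 0 became 6 with no filter, 3 with the replicate block, 12 with a block in each protocol and 6 without replicate 3, and leaving out 1 library gave 0 to 9, the 9 without VM TRAC replicate 3. Of all genes, the replicate block called 2.27% and the block in each protocol 8.35%. The fit without replicate 3 called 4.97%, and that without VM TRAC replicate 3 called 3.44%. For the ZNF711 interaction, 0 became 8 with no filter, 8 with a block in each protocol (2.54% of all genes) and 6 without replicate 3, and leaving out 1 library gave 0 to 3, the 3 without VM TRAC replicate 3 (0.151% of all genes). With the replicate block, the chains called higher in AM TRAC against VM TRAC went from 8 to 13, and the share of all genes from 6.18% to 10.2%. Shares over all genes were not counted for the fits with no filter or with DESeq2. Most fits of the compared groups alone or with libraries left out also lack them. Those chain counts therefore cannot be read as particular to collagens. With exon length in place of coding length, median ratios were 1.51 for COL1A1 to COL1A2 in VM, 1.03 and 0.993 for COL4A1 to COL4A2 in AM and VM, 1.04 for COL6A1 to COL6A2 in AM, 1.49 for COL4A5 to COL4A6 in AM, and 1.96 and 0.665 for COL3A1 to COL1A1 in AM and VM, so the COL4A1 to COL4A2 and COL6A1 to COL6A2 medians in AM moved from below 1 to above it. The causes of these shifts were not tested, other than the lengths used. Chains near 3 counts per library, such as COL5A3 and COL8A2 in AM, have fold changes that depth limits.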
